A study of Mus musculus with 23 samples.

Results

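The cells described here are border macrophages of the mouse brain that carry RNA of Lyve1 or Cd163 and little RNA of MHC class II genes. They were chosen cell by cell from their own counts of unique molecular identifiers (UMIs, 1 for each RNA molecule captured). A barcode had to show at least 3 of the 7 genes Mrc1, Pf4, Cd163, Lyve1, F13a1, Cbr2 and Ms4a7. The summed UMIs of these genes had to exceed those of the microglia genes P2ry12, Tmem119, Siglech and Sall1, and those of the endothelial and astrocyte genes Cldn5, Flt1, Aqp4 and Gja1. At least 1 UMI of Cd163 or Lyve1 was required, and at most 5 UMIs of H2-Aa, H2-Ab1 and H2-Eb1 together. Of 249715 barcodes that passed the quality limits (no fewer than 500 genes and 800 UMIs, and mitochondrial UMIs of 10% or less), 702 met the rule and are called Lyve1/Cd163 macrophages below. Barcodes that met the first conditions but had more MHC class II UMIs, or neither Cd163 nor Lyve1, are not among them. The 706 border macrophages above the MHC class II limit are called MHC class II high border macrophages and serve for comparison. Shares of border macrophages below refer to the 702 and the 706 together. They leave out 447 border macrophages within the MHC class II limit that had neither Cd163 nor Lyve1. The 706 needed neither gene.

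The study asked where in the brain antibodies go that were engineered to cross its capillaries. Mice of 12 weeks (3.3 months in the sample labels) were injected in the tail vein with an AF647-labelled antibody at 45 mg/kg and were perfused 24 hours later. ATV-TfR, which binds the transferrin receptor (gene Tfrc), was given to TfR mu/hu KI mice, and ATV-CD98hc, which binds the CD98 heavy chain (gene Slc3a2), to CD98hc mu/hu KI mice. Both alleles are knock-ins of a mouse/human receptor, for which the design gives a C57Bl6J background, and control IgG was given to C57BL/6 mice without a knock-in, so antibody and genotype cannot be told apart. Every antibody carried the LALAPG Fc mutations, which weaken binding to Fc gamma receptors. Brains without olfactory bulbs, cerebellum, pons and medulla were dissociated in the presence of Actinomycin D and Anisomycin, inhibitors of transcription and translation. Live cells were sorted into negative, low, medium and high AF647 bins. The positive cells of ATV-TfR set the limits between low, medium and high for all antibodies, and about 30% of live cells were positive with ATV-TfR, 20% with ATV-CD98hc and 1% with control IgG. A pool is 1 male and 1 female mouse, each antibody had 2 pools, and the 4 bins of a pool come from the same animals. The 23 libraries are all bins of all pools except the negative bin of control IgG pool 1, which was not analysed here.

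Border macrophages live outside the brain tissue proper, in the meninges, along penetrating vessels and in the choroid plexus. They take up proteins and particles from the fluid around vessels through scavenger receptors such as the mannose receptor Mrc1, the haemoglobin receptor Cd163 and the stabilin Stab1. Lyve1, a hyaluronan receptor, marks a subset with low MHC class II that is described along arteries and in the leptomeninges, whereas MHC class II high cells present antigen. In mouse the transcription factors PU.1 and MAF are central to macrophage identity.

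The labels of the cells were checked against genes in and outside the rule. Levels are given as CPM, a gene's UMIs scaled to the sum of all UMIs of the cells. Mrc1 stood at 3489 CPM in Lyve1/Cd163 macrophages, 1585 in MHC class II high border macrophages, 54.6 in the microglia class and 3.56 in the endothelial class. The rule used this gene, as it did Cd163 (804 CPM against 178 in MHC class II high cells), Pf4 (2050 against 1153) and Lyve1 (442 against 16.8), so these values describe the choice and are not tested. A UMI of Mrc1 was found in 98.4% of the cells, of F13a1 in 89.9%, of Pf4 in 83.8%, of Ms4a7 in 72.1% and of Cbr2 in 52.6%. Cd163 was seen in 609 of the 702 cells and Lyve1 in 265. Both were seen in 172 cells, Cd163 alone in 437 and Lyve1 alone in 93, so the class is carried mainly by Cd163. At the rule's edges, the 261 cells with exactly 1 UMI of Cd163 and Lyve1 together had 3202 CPM of Mrc1, and the 447 border macrophages with none had 2952. The 31 cells with 4 to 5 MHC class II UMIs had 2781 CPM of Cd74, the MHC class II invariant chain, and the 23 cells with 6 to 7, just outside, had 2250. Cells on either side of the limit on MHC class II thus had similar Cd74 levels.

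Genes that the rule did not use gave the same picture. Among the genes with the highest ratio to all other barcodes were Cd209f, a C-type lectin of the DC-SIGN family (195 CPM against 0.208), Fcna, a ficolin (170 against 0.338), and Folr2, the folate receptor of tissue macrophages (250 against 0.701). Clec10a, a lectin for terminal galactose and N-acetylgalactosamine (272 against 0.803), and Ccl24, an eosinophil chemokine (188 against 0.511), belonged to the same group. Against MHC class II high border macrophages, Fcna was 29.7 times higher, Cd209f 15.1 times, the iron exporter Slc40a1 12.5 times, Folr2 9.5 times and the scavenger receptor Colec12 6.52 times. The cells were chosen by genes of the same profiles, so these ratios are descriptions without a test. They pool all bins, which the 2 classes fill differently. In the high bins of control IgG, Folr2 stood at 58.6 CPM and Cd209f at 0 in Lyve1/Cd163 macrophages. MHC class II high cells of all bins had 26.3 and 12.9. Ratios within a bin were not taken.

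The promoters of the marker Mrc1 and of Folr2 and Mgl2, members of a lectin and receptor group that fell together below, were read from RefSeq (build GRCm38.p6). Each run covers the 200 bases from 250 to 51 bases before the annotated start, 5′ to 3′ on the gene's strand. Capitals mark the PU.1 core GAGGAA or its reverse TTCCTC, and the MAF core TGCTGA or its reverse TCAGCA.
Mrc1, chr2:14229164-14229363, plus strand: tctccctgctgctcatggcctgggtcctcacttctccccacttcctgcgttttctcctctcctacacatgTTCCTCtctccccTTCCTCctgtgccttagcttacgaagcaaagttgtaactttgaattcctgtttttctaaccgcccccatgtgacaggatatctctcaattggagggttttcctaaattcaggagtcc
Folr2, chr7:101857241-101857440, minus strand: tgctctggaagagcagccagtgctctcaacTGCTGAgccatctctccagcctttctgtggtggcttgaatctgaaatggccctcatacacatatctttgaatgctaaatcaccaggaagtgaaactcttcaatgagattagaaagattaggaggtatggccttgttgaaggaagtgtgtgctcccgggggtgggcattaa
Mgl2, chr11:70130107-70130306, plus strand: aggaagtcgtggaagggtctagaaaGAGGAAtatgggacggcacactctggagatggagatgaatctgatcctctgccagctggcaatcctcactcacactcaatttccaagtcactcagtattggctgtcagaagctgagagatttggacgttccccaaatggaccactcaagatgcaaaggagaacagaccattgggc
The Mrc1 window held 2 PU.1 cores, the Mgl2 window 1 PU.1 core and the Folr2 window 1 MAF core. Of 32851 mouse promoter windows of this length, 18.8% held the PU.1 core and 13.1% the MAF core, so these matches are common and describe letters only. The windows of the markers Cd163 and Pf4, and of Cd209f and Cx3cr1, which changed below, were read too and held neither motif. Of 2 windows of Tgfbr1, 1 held a core of each kind and the other neither. Folr2 has a further annotated start, whose window (chr7:101845382-101845581, minus strand) held neither motif. Clec10a, Colec12, Cd74 and Lyve1 were not found among these promoters.

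Summed over a pool, the cells held 161516 to 514063 UMIs, with a median of 2003 UMIs, 1292.5 genes and 2.02% mitochondrial UMIs per cell. Pools contributed 99 and 56 cells (ATV-TfR), 97 and 82 (ATV-CD98hc) and 185 and 183 (control IgG). Scrublet marked 34 of them as doublets, 10.1% and 10.7% in the ATV-TfR pools and 2.06% to 4.92% in the others. These rates do not rest on the same limit. Where the automatic limit marked almost no barcode of a library (at most 0.13%), a percentile of the scores was used instead. This held for the high bins of ATV-TfR, most positive bins of ATV-CD98hc and the low bin of control IgG pool 2. For 48 cells the barcode sequence also occurred in another library, and no sequence was a Lyve1/Cd163 macrophage in more than 1 library. All 5 markers of T and NK cells were at 0. Markers of other brain cells were present and differed between pools and bins. With 2 pools per antibody, p-values measure the spread between pools of animals.

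The receptors that the antibodies bind, and those that could bind their Fc part, were compared with other classes after thinning each cell to 1500 UMIs. This kept 492 Lyve1/Cd163 macrophages and left out 210 that were shallower. Tfrc was seen in 4.07% of thinned cells (6.70% before thinning, from 50 UMIs in all), against 37.8% in the endothelial class, 1.26% in the microglia class and 0.690% in MHC class II high border macrophages. Slc3a2 was seen in 25.2%, against 43.0% of endothelial, 21.2% of microglia and 20.3% of MHC class II high cells. Astrocytes showed Tfrc in 6.10% and Slc3a2 in 29.2%, and fibroblasts in 0.670% and 28.6%. These macrophages also carried endothelial and astrocyte RNA, and its part in both shares was not tested. Slc7a5, the large amino acid transporter that pairs with CD98hc, was seen in 2.44%, against 69.6% of endothelial cells. The target receptors of both ATVs were thus less often seen here than in endothelial cells, and Tfrc was close to the lower limit of detection.

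Fcgrt, the neonatal Fc receptor that returns IgG from endosomes, was seen in 38.4% of thinned Lyve1/Cd163 macrophages. This lay above MHC class II high border macrophages (20.5%) and microglia (10.97%) and below endothelial cells (58.0%), with 36.4% of fibroblasts and 7.12% of astrocytes. The inhibitory Fc gamma receptor Fcgr2b was seen in 49.8%, against 36.0% of MHC class II high cells and 21.4% of microglia. The activating receptors went the other way. Fcgr1 was seen in 27.2% (34.0% of MHC class II high cells), Fcgr3 in 38.2% (48.6%) and Fcgr4 in 1.63% (12.1%), while their shared signalling chain Fcer1g was seen in 84.2% (90.9%). The classes fill the bins differently, since the high bins of control IgG held 196 and 137 MHC class II high cells but 47 and 30 of the Lyve1/Cd163 macrophages. In those bins the Lyve1/Cd163 macrophages had 192 CPM of Fcgrt and 298 of Fcgr2b, against 388 and 516 in the low bins, while MHC class II high cells of all bins had 161 and 286. The difference between the classes within a bin was not tested. In endothelial cells, which should lack them, all 5 Fc gamma receptor genes were seen in at most 0.650%. The median depth before thinning was 2003 UMIs here, 2441 in MHC class II high cells, 3049 in microglia and 3447 in endothelial cells.

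**Figure D1:**
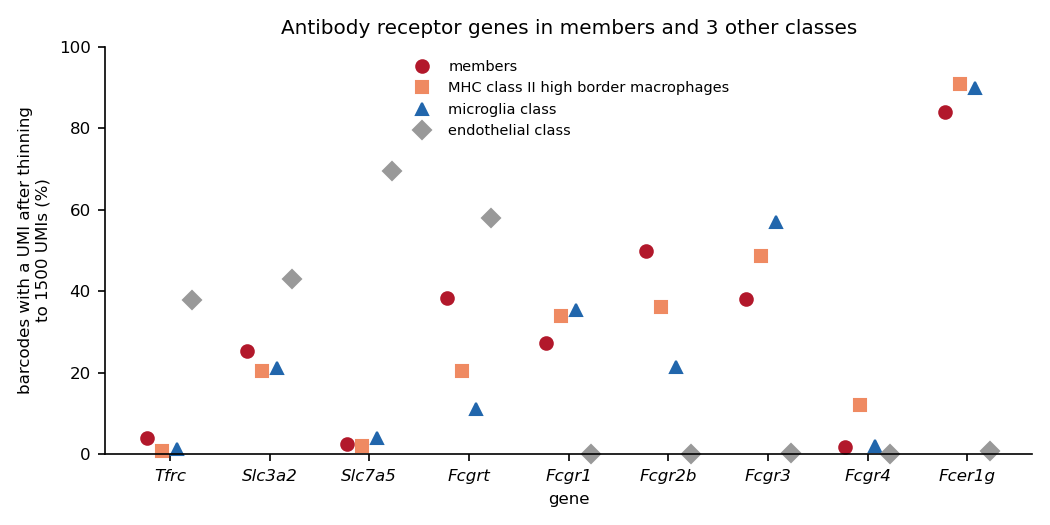
Share of barcodes with at least 1 UMI of each receptor gene (y axis, percent) after thinning every cell to 1500 UMIs, for Lyve1/Cd163 macrophages (members) and 3 other classes, 1 point a class over all libraries. Fcgr2b was seen in 49.8% of members and in 21.4% of microglia, and Tfrc in 4.07% of members and 37.8% of endothelial cells.

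Per pool, Fcgrt stood at 307 and 365 CPM with ATV-TfR, 289 and 385 with ATV-CD98hc and 367 and 340 with control IgG. Slc3a2 stood at 221 and 204, at 143 and 104, and at 238 and 175, in the same order. Tfrc stood at 32.1 and 18.6, at 27.0 and 72.9, and at 21.9 and 15.6. The ranges of the 3 antibodies overlapped for Fcgrt. For Slc3a2 the ATV-CD98hc pools were the lowest and did not overlap with the others, and for Tfrc they lay above the control IgG pools. Slc3a2 did not pass edgeR's test in any pair of antibodies (-0.71 ± 0.26, adjusted p = 0.223 for ATV-CD98hc minus control IgG, and 0.85 ± 0.28, adjusted p = 0.166 for ATV-TfR minus ATV-CD98hc), nor did Fcgrt. The Tfrc levels rest on 50 UMIs in all. The processing notes name mouse builds only. How far RNA of the mouse/human alleles of Tfrc and Slc3a2 was counted was not tested, so their levels may differ in scale between genotypes.

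How far Lyve1/Cd163 macrophages were enriched with AF647 signal depended on the cells they were counted against. With ATV-TfR they made up 0.0334% and 0.0601% of kept barcodes in the negative bin, 0.105% and 0.0886% in the low, 0.355% and 0.162% in the medium and 0.113% and 0.0625% in the high bin. With ATV-CD98hc the shares were 0.0449% and 0 (of 3467 barcodes, which allows up to 0.0865%), then 0.144% and 0.156%, 0.208% and 0.160%, and 0.297% and 0.135%. With control IgG they were 0.0575% (7 of 12167, exact 95% binomial interval 0.0231% to 0.118%, counting error only), then 4.18% and 2.89%, 6.40% and 4.24%, and 8.94% and 4.14%. All 6 positive libraries of control IgG lay above every other library.

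The trend over the 4 bins was measured as a slope, the change of the share's logit per bin. It was 0.62 with ATV-CD98hc (8 libraries) and 1.18 with control IgG (7 libraries), and both passed the exact two-sided permutation test of bin labels (adjusted p = 0.0476 over the 6 trends tested, for each). With bins permuted within pools, the pairing that the shared animals give, neither passed (adjusted p = 0.0521 for both). The slope with control IgG was 0.41 without pool 2 and 1.32 without pool 1, and that with ATV-CD98hc 0.56 to 0.68 without 1 pool, designs of 3 or 4 libraries that are too small to pass. The slope with ATV-TfR was 0.25 (exact permutation test, adjusted p = 0.419). Counted against microglia and themselves only, the slopes were 2.05 with ATV-TfR and 1.68 with ATV-CD98hc (exact permutation test, adjusted p = 0.00238 for each over 3 trends) and 0.73 with control IgG (adjusted p = 0.340). From the negative to the high bins, the microglia class itself went from 2697 and 1449 barcodes to 20 and 21 with ATV-TfR. With ATV-CD98hc it went from 642 and 241 to 89 and 45. The slopes against microglia therefore also carry this fall of the denominator. Counted without endothelial and astrocyte barcodes, the slopes were 1.21 (adjusted p = 0.0202), 1.39 (adjusted p = 0.00238) and 0.75 (adjusted p = 0.154), by the same exact test. The endothelial and astrocyte classes, with 107055 and 103091 barcodes, fill most of the positive bins of both ATVs.

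**Figure D2:**
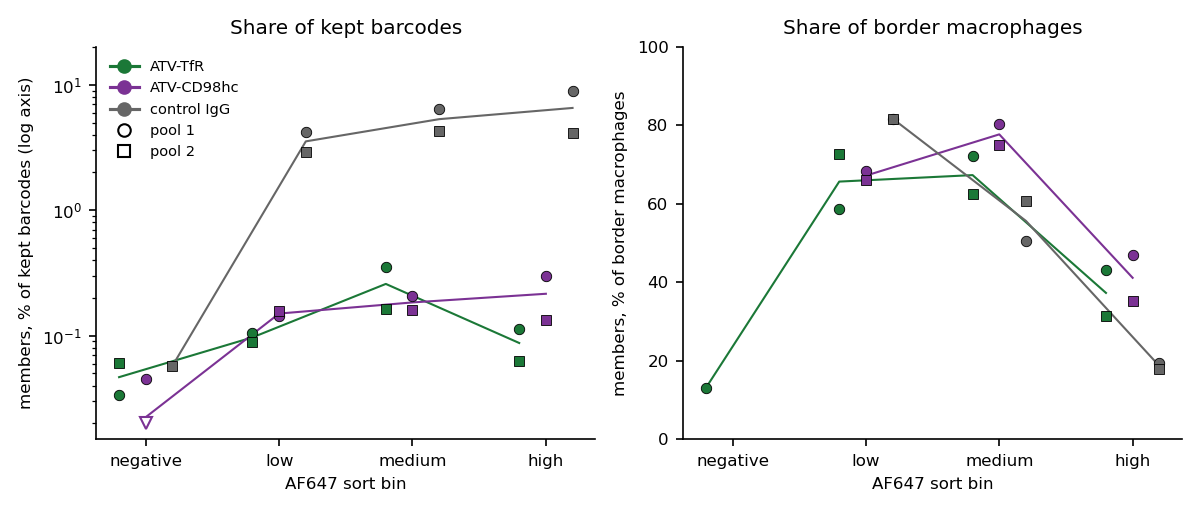
Lyve1/Cd163 macrophages (members) as a percent of kept barcodes on a log axis (left) and of members and MHC class II high border macrophages together (right, libraries with at least 20 of these), by AF647 bin. Points are libraries, lines join the means of a bin, and the open triangle marks ATV-CD98hc negative pool 2 with 0 members. With control IgG the share of border macrophages went from 81.7% and 81.8% in the low bin to 19.3% and 18.0% in the high bin.

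Cell numbers were also compared with edgeR's quasi-likelihood test over 17 cell classes, with kept barcodes as the offset. From the negative to the high bin, Lyve1/Cd163 macrophages rose by 2.85 ± 0.95 on the log2 scale (estimate ± SE) with ATV-CD98hc (adjusted p = 0.00751) and by 6.79 ± 1.06 with control IgG (adjusted p = 4.96e-07). The negative bin of control IgG is 1 library with 7 of the cells, so this p takes its spread from the other groups. The value with ATV-TfR was 0.94 ± 0.83 (adjusted p = 0.349). With endothelial barcodes left out of the offset, the rise was 4.70 with ATV-TfR (adjusted p = 4.82e-06), 6.68 with ATV-CD98hc and 6.43 with control IgG. Between the high bins of ATV-TfR and ATV-CD98hc the difference was -1.27 ± 0.66 (adjusted p = 0.132). It passed only with pool as a term within each antibody, as given in the last section. Weighting each bin by the share of live cells that flow cytometry found positive, 30.8% to 82.0% of the Lyve1/Cd163 macrophages of the ATV-TfR pools lay among AF647 positive cells. The range covers both pools and any split of the positive cells among bins. It leaves out the counting error of the few cells in negative bins and the rounding of the flow cytometry shares. The uncertainty is therefore wider than the ranges. The range was 33.7% to 42.7% in control IgG pool 2 and 44.5% to 62.4% in ATV-CD98hc pool 1, and no cell was in the negative bin of ATV-CD98hc pool 2.

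Among border macrophages, the share of the Lyve1/Cd163 group was lower in the high bin than in the low and medium bins. With control IgG it was 81.7% and 81.8% of border macrophages in the low bin, 50.6% and 60.7% in the medium and 19.3% and 18.0% in the high bin. With ATV-TfR the shares were 58.6% and 72.7%, 72.2% and 62.5%, and 43.1% and 31.4%. With ATV-CD98hc they were 68.4% and 66.0%, 80.4% and 75%, and 47.0% and 35.3%. In each antibody both high libraries lay below all low and medium libraries. The negative bins hold few of these cells. Their shares were 13.04% and 36.4% with ATV-TfR (3 and 4 cells), 42.9% with ATV-CD98hc in pool 1 (3 cells, and 0 in pool 2) and 53.8% with control IgG (7 cells). The ATV negative bins were thus about as low as or lower than the high bins. A straight trend that includes the sparse negative bins did not pass the exact permutation test (slope -0.81, adjusted p = 0.117 with control IgG, 0.20 and 0.15 with the ATVs, adjusted p = 0.606 for each). With the rule applied after thinning, the slope with control IgG was -1.01 (exact permutation test, adjusted p = 0.0349).

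Within the Lyve1/Cd163 group, the share of cells with Lyve1 also differed by bin. A UMI of Lyve1 was found in 50% and 38.4% of the cells of the low bin of control IgG, in 70.5% and 44.1% of the medium and in 0 of 47 and 6 of 30 cells (20%) of the high bin. With ATV-TfR the shares were 41.2% and 43.8%, 70.2% and 40%, and 9.09% and 18.2%. With ATV-CD98hc they were 19.2% and 29.0%, 40.5% and 30.3%, and 9.68% and 22.2%. After thinning, 0% and 13.04% of the cells in the high bin of control IgG had Lyve1, against 41.9% and 33.3% in the low bin. With ATV-CD98hc the low and high libraries overlapped. By the rule, every cell without Lyve1 has Cd163. Cd163 was seen in 88.9% to 100% of the cells of high libraries and in 68.4% to 97.0% of those of low and medium libraries. A majority with Cd163 was thus not particular to the high bins.

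Traces of MHC class II also differed by bin. Of the cells in the high bin, 53.2% and 63.3% had 1 to 5 MHC class II UMIs with control IgG and 48.4% and 50% with ATV-CD98hc, but 13.6% and 9.09% with ATV-TfR. Low and medium libraries had 2.27% to 23.1%. The high bins of control IgG and ATV-CD98hc did not overlap with any low or medium library, and those of ATV-TfR lay within their range. Lyve1 and the MHC class II genes belong to the rule, so both are descriptions, and free RNA from the many MHC class II high cells of these bins was not tested as a source. Endothelial cells should lack these genes. In the high bins of control IgG they had a mean of 0.0769 and 0.0667 MHC class II UMIs. In those of ATV-CD98hc the means were 0.257 and 0.0573. The control IgG means rest on few cells. Of the barcodes there that were deep enough for thinning, 358 of 375 and 588 of 610 were neither endothelial nor astrocyte. These means are therefore too sparse to measure free RNA in the high bins of control IgG.

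**Figure D3:**
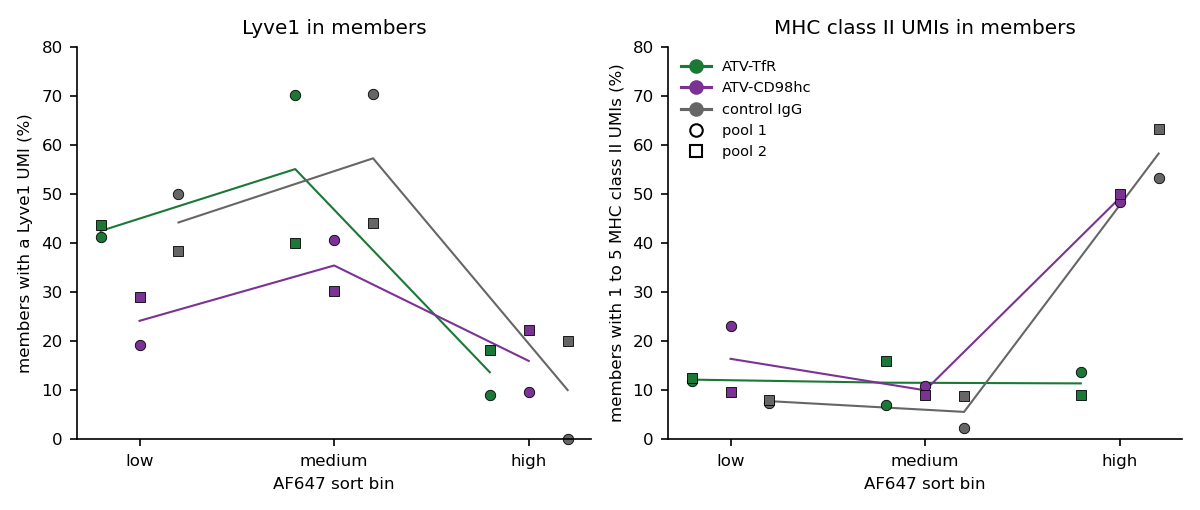
Percent of Lyve1/Cd163 macrophages (members) with a Lyve1 UMI (left) and with 1 to 5 UMIs of H2-Aa, H2-Ab1 and H2-Eb1 (right), by AF647 bin, for libraries of the positive bins. Points are libraries and lines join bin means, and in the high bin Lyve1 was seen in at most 22.2% of the cells of any library.

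Gene levels were compared between bins on UMIs summed per library, for libraries with at least 20 of the cells. Negative bins held 0 to 7 cells and could not be used, and the contrasts between positive bins were chosen after the cell numbers were seen. In the high bin of control IgG, lectins and receptors from a list of border macrophage genes fell. Clec10a stood at 326 and 403 CPM in the low bin, 298 and 157 in the medium and 18.3 and 12.8 in the high bin (high minus low -4.43 ± 0.68, edgeR adjusted p = 0.00529). Mgl2, the close copy of Clec10a that lies beside it on chromosome 11, stood at 302 and 522 in the low bin and at 27.5 and 38.3 in the high bin (-3.66 ± 0.57, adjusted p = 0.00529). UMIs of the copies may be assigned to either, so these are best read together. Cd209f had 88 UMIs in the low bin, 170 and 166 CPM, and 0 in the high bin, which is at least 10.5-fold lower against a floor of 3 UMIs over the group (adjusted p = 0.0103). Its near copies of the Cd209 family carry the same reservation.

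Folr2 (chr7:101839988-101857194), whose promoter is shown above, stood at 463 and 228 CPM in the low bin, 350 and 355 in the medium and 64.0 and 51.0 in the high bin (high minus low -2.53 ± 0.47, edgeR adjusted p = 0.0161). Colec12, a scavenger receptor for oxidised lipoproteins and sugars, stood at 487 and 588 in the low and at 119 and 230 in the high bin (-1.69 ± 0.34, adjusted p = 0.0181). Ednrb, the endothelin B receptor, went from 136 and 125 to 0 and 12.8 CPM (-4.35 ± 0.73, adjusted p = 0.00764). Of these, Ednrb has its highest level in astrocytes (129 CPM in Lyve1/Cd163 macrophages and 220 in all other barcodes), Colec12 in fibroblasts and Mgl2 in monocytes and dendritic cells. In none of these 6 genes did low and high libraries overlap. They are the called members of a list of 20 border macrophage genes outside the rule, of which 0 were higher and 6 lower, against 0.356% of the 4209 genes tested that were lower. The list's median was -1.90, and that of all tested genes 0.03. Fc gamma receptors (0 of 5 called), the neonatal Fc receptor group (0 of 2), iron and heme handling (0 of 9), complement (0 of 9) and immediate early genes (0 of 12) had no call in either direction, against 0.903% of all genes.

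Other genes fell alongside. P2rx7, the ATP-gated channel of macrophages, stood at 1480 and 1254 CPM in the low bin and 275 and 562 in the high bin (-1.77 ± 0.34, edgeR adjusted p = 0.0175). Hgsnat, a lysosomal acetyltransferase, fell by 1.93 ± 0.43 (adjusted p = 0.0349). Tslp, an epithelial-type cytokine, and its neighbour Wdr36, which starts 17427 bases beyond its end on chromosome 18, each had 77 UMIs in the low bin and 3 in the high bin (-3.13 ± 0.63 and -3.11 ± 0.68, adjusted p = 0.0181 and 0.0283). A further annotated gene on the opposite strand, 4930455D15Rik, overlaps both. With pool as a term, Wdr36 was no longer called (adjusted p = 0.0712).

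In the other direction, Cd74, Tgfbr1 and Cx3cr1 rose in the high bin of control IgG. Cd74 stood at 180 and 153 CPM in the low bin, 20.6 and 220 in the medium and 842 and 944 in the high bin (2.40 ± 0.49, edgeR adjusted p = 0.0181). Tgfbr1, a receptor chain for TGF-beta, stood at 195 and 235 in the low and 604 and 587 in the high bin (1.45 ± 0.27, adjusted p = 0.0161). Cx3cr1, the fractalkine receptor, stood at 302 and 382 in the low and 878 and 702 in the high bin (1.20 ± 0.27, adjusted p = 0.0348). With pool as a term, Cx3cr1 was no longer called (edgeR adjusted p = 0.0670). Over all bins, the ratio of the level here to that in MHC class II high border macrophages was 0.02 for Cd74, 0.36 for Tgfbr1 and 0.46 for Cx3cr1. For the fallen Cd209f, Folr2, Clec10a and Mgl2 it was 15.1, 9.5, 6.18 and 1.81. For these genes the change thus ran toward the levels of that class, but not every called gene did so. The ribosomal protein gene Rps4x was called lower in the high bin (-1.50 to -1.29 over 16 other choices of processing). Over all bins it had 790 CPM here and 1730 in MHC class II high border macrophages, so its fall ran away from that class. The part of cells near the rule's MHC class II limit was not tested beyond the stricter limit below. The inhibitory receptors Lair1 and Clec12a rose by 1.78 ± 0.31 and 1.99 ± 0.45, Ifi27l2a, an interferon-stimulated gene, by 1.66 ± 0.36, and Pmepa1, a regulator of TGF-beta signalling, by 1.66 ± 0.36 (adjusted p from 0.00955 to 0.0369).

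**Figure D4:**
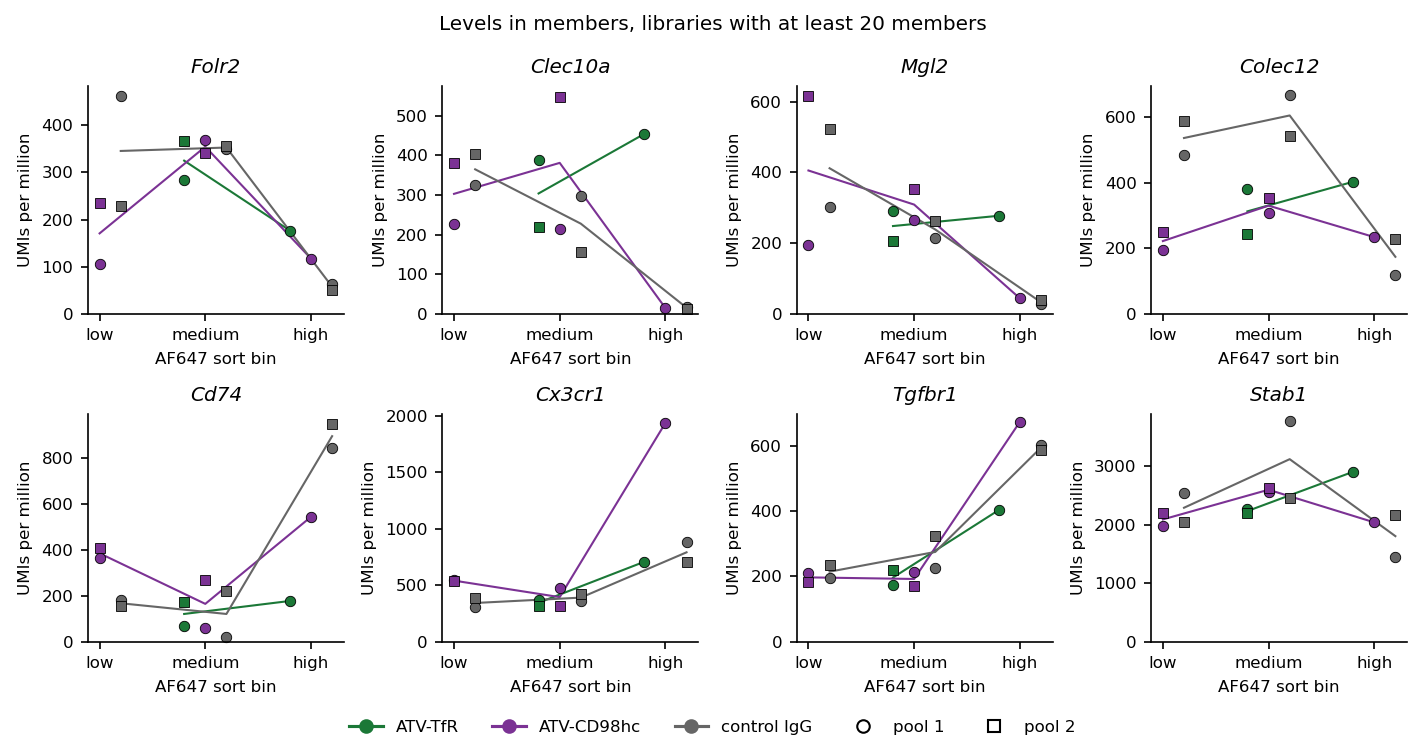
CPM of 8 genes in Lyve1/Cd163 macrophages (members), by AF647 bin, for libraries with at least 20 of them. Points are libraries and lines join the means of a bin. With control IgG Folr2, Clec10a, Mgl2 and Colec12 were lowest and Cd74, Cx3cr1 and Tgfbr1 highest in the high bin, while Stab1, which was not called, stood at 2531 and 2042 in the low and 1446 and 2157 in the high bin.

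In all, 23 genes rose and 15 fell from the low to the high bin of control IgG. Of the 23, 11 have their highest level in the microglia class and 5 in a border macrophage class, among them the rule gene H2-Aa. Of the 15 that fell 8 have it in a border macrophage class, among them the rule gene Lyve1, and both rule genes count here as description only. Among all 4209 genes tested, 960 have their highest level in a border macrophage class. The 6 microglia markers outside the rule summed to 1470 and 1369 CPM in the low bin and to 1537 and 1697 in the high bin, and 0 of the 4 tested were called. Endothelial markers summed to 175 and 453 CPM in the low bin against 64.0 and 25.5 in the high bin, astrocyte markers to 750 and 331 against 320 and 153, and fibroblast markers to 492 and 294 against 174 and 421. The endothelial and astrocyte sums were lower in the high bin without overlap. Choroid plexus markers summed to 3598 and 578 against 28850 and 102, and 1 cell held 70.5% of those in all pools. The part of such RNA in the calls was not tested beyond the choice of cells that follows. A narrower choice took cells with under 5 UMIs of each list of another cell type. The lists of microglia and of monocytes and dendritic cells were not used for it. Microglia RNA was thus not limited, and 210 of all 702 cells had at least 5 UMIs of the microglia list. In this choice of cells, 88 genes rose and 94 fell (2.61% and 2.79% of 3375 tested), and 36 of the 38 calls were shared. The border macrophage list then had 0 higher and 11 lower of 20 (median -1.87), with Cd209g, Wfdc17, Clec4n, Ccl24 and Gas6 added. With control IgG pool 1 left out no gene was called, with 274 at an unadjusted p under 0.05, and without pool 2 4 were higher and 2 lower, each from 1 library per bin with the spread taken from the other groups. The values without pool 1 and without pool 2 were -4.91 and -4.08 for Clec10a, -2.19 and -2.84 for Folr2 and 2.55 and 2.21 for Cd74.

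The cells with little RNA of other types showed further calls in control IgG, to be read against 2.61% of genes higher and 2.79% lower. Fcna fell by 3.69 ± 0.72 (edgeR adjusted p = 2.59e-04), Slc40a1 by 1.77 ± 0.43 (adjusted p = 0.00505) and Wfdc17, a secreted macrophage protein, by 2.53 ± 0.37 (adjusted p = 1.18e-06). The monocyte chemokines Ccl2 and Ccl12 fell by 2.03 ± 0.55 and 1.54 ± 0.41, and of 25 lysosome genes 4 fell (Neu1, Ctsl, Ctsb and Cd63). Lpl, lipoprotein lipase, rose by 3.95 ± 1.06 (adjusted p = 0.0138). Ribosomal protein genes, a list taken up after the calls were seen, had 0 higher and 30 lower of 85. Restricting the cells to at most 2 MHC class II UMIs gave 34 higher and 39 lower genes, with 35 of the 38 calls shared.

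The medium bin of control IgG was not distinguished from the low bin. No gene was called (95 had an unadjusted p under 0.05, and DESeq2 called 0), while 8 genes were higher and 12 lower in the high than in the medium bin (0.19% and 0.285% of genes tested, 0.475% together). There Clec10a, Folr2, Colec12, Ednrb, Cd209f and P2rx7 fell again and Cd74 rose. Ccl8, a monocyte chemokine, stood at 288 and 126 CPM in the medium and 9.15 and 25.5 in the high bin (-3.60 ± 0.69, edgeR adjusted p = 0.0274). The high libraries serve both comparisons. As a straight trend over the 3 positive bins, 7 genes rose and 2 fell with control IgG (0.166% and 0.0475%, 0.214% together). With ATV-CD98hc 8 rose and 84 fell (0.19% and 2%, 2.19% together) on 5 libraries, and 0 of the 84 have their highest level in a border macrophage class. Astrocyte markers summed to 6464 and 4216 CPM in the low libraries of ATV-CD98hc, 188 and 3204 in the medium and 279 in the high one, and their part in these calls was not tested. With ATV-TfR edgeR called none on 3 libraries (517 at an unadjusted p under 0.05).

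With the ATVs, only pool 1 had 20 cells in the high bin, so comparisons with it rest on 1 library, whose spread is taken to equal that of the other groups, and no p-value is given for its genes. With ATV-CD98hc, Clec10a stood at 226 and 380 CPM in the low bin, 214 and 548 in the medium and 14.7 in the high bin of pool 1. Cx3cr1 stood at 542 and 537, at 470 and 317, and at 1935. High minus low had 4 genes higher and 15 lower (0.095% and 0.356% of genes tested, 0.451% together). These counts describe that 1 library and have no replicate check. Rad51b, a DNA repair gene, stood at 1480 CPM in the high library against 30.1 and 0 in the low ones, which held 2 UMIs. High minus medium, which rests on the same library, had 3 higher and 0 lower (0.0713%). Medium minus low, with both pools, had 0 and 2 (0.0475%). High minus low was -4.45 for Clec10a and -3.37 for Mgl2, and neither was called. Among the cells with little RNA of other types, 1 low library of pool 2 faced 1 high library of pool 1, and the values were -5.19 and -4.43, with no replicate check. Over both pools, Clec10a was at 308, 352 and 49.1 CPM from the low to the high bin, and Mgl2 at 420, 302 and 78.5.

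With ATV-TfR, Clec10a and Mgl2 were not low in the high bin. Over both pools, Clec10a was at 159, 334 and 403 CPM from the low to the high bin, Mgl2 at 354, 263 and 355, and Cd209f at 247, 244 and 177. Folr2 was at 70.7, 310 and 145, Cx3cr1 at 230, 354 and 693 and Cd74 at 61.9, 102 and 274. No gene was called between high and medium by edgeR (529 at an unadjusted p under 0.05), and DESeq2 was not run on this contrast. The difference of high minus medium between ATV-TfR and control IgG was 4.01 for Clec10a and 2.72 for Mgl2. It was called for no gene, with 327 at an unadjusted p under 0.05, nor was the matching difference between ATV-CD98hc and control IgG (166). These differences share the control libraries. Whether the bins act differently under ATV-TfR was thus not resolved with 1 high library of 22 cells.

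Between antibodies, the cells of all bins were summed per pool. Of 6460 genes tested, edgeR called 8.47%, 4.37% and 2.77% in the 3 comparisons. In detail, 459 were higher and 88 lower with ATV-TfR than with control IgG (7.11% and 1.36%), 216 and 66 with ATV-CD98hc than with control IgG (3.34% and 1.02%), and 169 and 10 with ATV-TfR than with ATV-CD98hc (2.62% and 0.155%). These comparisons share pools. Of the 459 higher genes, 356 have their highest level in astrocytes and 0 in a border macrophage class, as have 184 and 1 of the 216 and 130 and 0 of the 169. In these macrophages 11, 1 and 0 of them stood at or above all other barcodes. The 1 gene is H2-Aa, which the rule limits, and is no test of it. Among all 6460 genes tested, 1275 have it in a border macrophage class. Of the genes that were lower than with control IgG, 47 of 88 and 49 of 66 have their highest level in fibroblasts. Only 7 of 88 and 1 of 66 have it in a border macrophage class. In these macrophages, 57 of 88 and 35 of 66 stood at or above the level over all other barcodes. Those barcodes are mostly endothelial (107055) and astrocyte (103091), so that measure does not mark a gene as one of macrophages.

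The marker lists of these cells moved likewise. The 9 astrocyte markers summed to 5918 and 7349 CPM in Lyve1/Cd163 macrophages with ATV-TfR, 1826 and 3051 with ATV-CD98hc and 546 and 440 with control IgG, and 76 cells had at least 5 such UMIs. The 6 fibroblast markers summed to 39.3 and 31.0, to 23.1 and 36.4, and to 464 and 346, and 14 cells had at least 5. Oligodendrocyte markers reached 6200 in ATV-TfR pool 1, where 1 cell held 89.3% of all, against 99.5 to 142 in the other pools. Of the 9 astrocyte markers, 9 were called higher with ATV-TfR and 7 with ATV-CD98hc than with control IgG, and 4 of the 4 tested fibroblast markers lower in both. In all, 609 cells had under 5 UMIs of each list, the microglia and the monocyte and dendritic cell lists apart. Among these 609 cells, 9 genes were higher and 1 lower with ATV-TfR, 7 and 0 with ATV-CD98hc, and 0 between the ATVs. Without ATV-TfR pool 1, 331 genes were called between ATV-TfR and control IgG and 48 between the ATVs, where none was without ATV-CD98hc pool 1. Without ATV-CD98hc pool 2, 178 were called between ATV-CD98hc and control IgG. With doublets removed, 267, 123 and 43 genes were called. Without cells that had a UMI of Cldn5, Flt1, Aqp4 or Gja1, 17 were higher and 28 lower with ATV-TfR than with control IgG, 14 and 33 with ATV-CD98hc, and 0 differed between the ATVs, so lower genes then outnumbered higher ones.

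**Figure D5:**
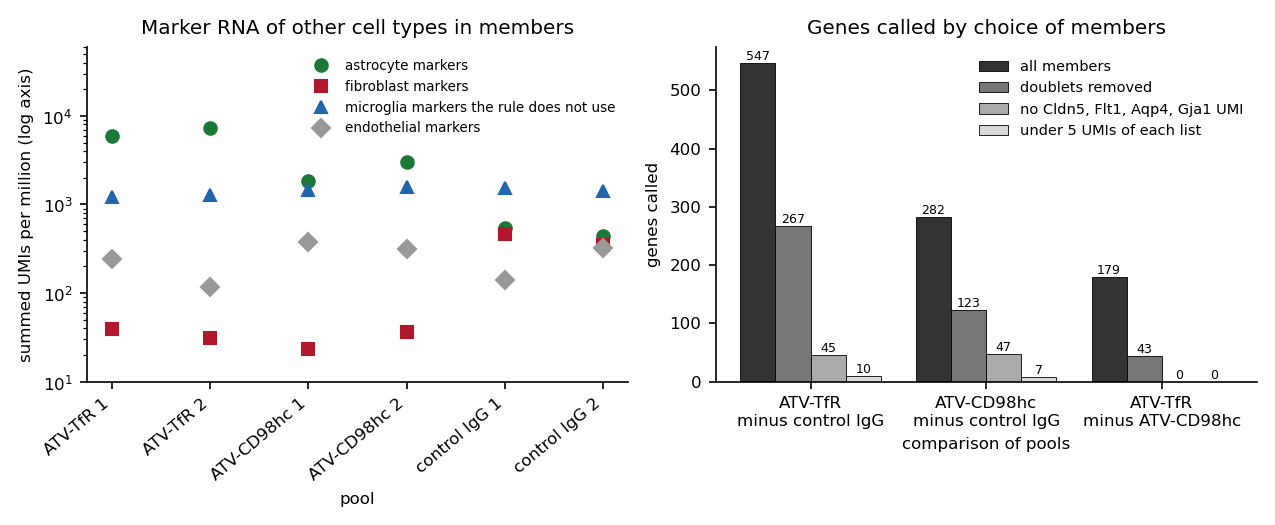
Left, summed CPM of marker lists of 4 other cell types in Lyve1/Cd163 macrophages by pool (log axis). Right, number of genes called between pools (edgeR adjusted p under 0.05) for all cells and for 3 narrower choices of cells, where ATV-TfR minus control IgG went from 547 to 10.

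The functional lists held few calls, each to be read against the shares of all genes above. Of 11 tested interferon-stimulated genes, 0 were higher and 3 lower with ATV-TfR than with control IgG, with a median of -1.29 against 0.01 for all genes. Among them, Stat2, a transcription factor of the interferon response, stood at 60.7 and 31.0 CPM with ATV-TfR, 131 and 83.3 with ATV-CD98hc and 151 and 107 with control IgG (ATV-TfR minus control IgG -1.29 ± 0.37, edgeR adjusted p = 0.0330). Ifi27l2a stood at 218 and 173, at 385 and 286, and at 544 and 391 (-1.15 ± 0.25, adjusted p = 0.00417). For both genes the ATV-TfR pools were the lowest and did not overlap with control IgG. Cd74 stood at 75 and 180, at 343 and 432, and at 318 and 280, and was lower with ATV-TfR than with control IgG (-1.26 ± 0.31, adjusted p = 0.0127) and than with ATV-CD98hc (-1.64 ± 0.32, adjusted p = 0.00942). None of these was called among the 609 cells with little RNA of other types (ATV-TfR minus control IgG -1.13, -1.04 and -1.13 for Stat2, Ifi27l2a and Cd74, edgeR adjusted p = 0.460, 0.0990 and 0.211). Bins also entered in different proportions. In medium bins Cd74 stood at 102 CPM with ATV-TfR and 119 with control IgG over both pools, and in high bins at 274 and 885. Over 18 alternatives its difference between ATV-TfR and control IgG ran from -2.42 to -0.0012, and the call was kept in 13.

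Pmepa1 was the gene of a border macrophage class that stayed lower with ATV-TfR than with control IgG in those 609 cells (-1.47 ± 0.29, edgeR adjusted p = 0.00728), and -1.19 ± 0.26 in all 702. Compared with ATV-CD98hc, ATV-TfR had lower Nfkbiz, an inducible NF-kappa-B regulator (39.3 and 55.7 against 193 and 115 CPM, -1.70 ± 0.36, adjusted p = 0.0162), Iigp1, an interferon-induced GTPase (-1.96 ± 0.49, adjusted p = 0.0420), and Cx3cr1 (-0.93 ± 0.23, adjusted p = 0.0410). With ATV-CD98hc against control IgG, the chemokine Ccl7 was lower (27.0 and 88.5 against 153 and 165 CPM, -1.55 ± 0.41, adjusted p = 0.0408). It was not called by DESeq2, among the 609 cells, without pool 1 of ATV-CD98hc (-0.82, edgeR adjusted p = 0.580) or without pool 2 of control IgG, and its adjusted p ran from 0.000231 to 0.959 over 19 alternatives. Nfkbiz, Iigp1 and Cx3cr1 were not called by DESeq2, nor without pool 1 of ATV-TfR or pool 1 of ATV-CD98hc (-1.28, -1.14 and -0.59 without the latter), and Iigp1 and Cx3cr1 also not without pool 2 of ATV-TfR. None of the genes called between the ATVs was called among the 609 cells. Scavenger receptors (0 of 13), Fc gamma receptors (0 of 4), the neonatal Fc receptor group (0 of 2), lysosome genes (0 of 25), iron and heme handling (0 of 10) and the 20 border macrophage genes outside the rule (0 of 20) had no call in any of the 3 comparisons by edgeR. The CD98 list had 2 called genes of 5. Slc7a10 was higher with ATV-TfR (5.39, edgeR adjusted p = 3.09e-07) and with ATV-CD98hc (3.88, adjusted p = 0.000396) than with control IgG, and Slc7a11 with ATV-TfR (1.35, adjusted p = 0.0448). Both were higher with ATV-TfR than with ATV-CD98hc (1.51 and 2.52, adjusted p = 0.0206 and 0.0168). Slc7a10, a small neutral amino acid transporter, has its highest level in astrocytes and Slc7a11, the cystine transporter, in fibroblasts. For ATV-TfR minus control IgG, the Slc7a10 call was kept in 15 of 16 alternatives. That of Slc7a11 was kept in 8 of 16, with values from -5.79 to 2.99.

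Female and male cells of a pool were told apart by Xist and by Ddx3y, Eif2s3y, Kdm5d and Uty. In the 3 pools with at least 20 cells of each sex (1 of ATV-CD98hc and both of control IgG), 2 of 3161 genes were higher and 20 lower in female cells (0.0633% and 0.633%, 0.696% together). Gpr183, an oxysterol receptor that guides immune cells, stood at 605, 345 and 343 CPM in female and 196, 194 and 142 in male cells (1.21 ± 0.24, edgeR adjusted p = 0.0190, higher in 3 of 3 pools). Cd74 was higher in female cells of 3 of 3 pools as well (1.44 ± 0.31, adjusted p = 0.0319). These sums run over all bins, which the sexes filled differently. The high bins of control IgG gave 23 of 71 and 21 of 94 female cells, but 10 of 46 and 5 of 47 male cells. The part of the bins in the sex differences was not tested. Of the 20 lower genes, 10 have their highest level in fibroblasts. Among cells with little RNA of other types edgeR called no gene (66 at an unadjusted p under 0.05), and none (154) in a fit without pool as a term that also took in further female sums, 6 against 3, while DESeq2 called 0 higher and 7 lower. Without ATV-CD98hc pool 1, 184 genes were called, and without control IgG pool 2 none.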

How the data were processed

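Droplet RNA libraries of 23 bins were deposited by the authors as whole-number UMI counts per gene and barcode, made with Cell Ranger 7.1.0 per the file headers. The other deposited files (unit: other) list genes, barcodes and the library of each barcode. The submitters' processing notes name mm10, GRCm38 and Seurat 4 and 5. The cells and gene lists were chosen with earlier results of these data known. Replicate libraries are separate pools of 1 male and 1 female mouse.

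Cells were chosen by the rule in the text. UMIs were summed per pool or, with at least 20 cells, per library, and tested with edgeR 4.0.16 (quasi-likelihood, TMM factors, groups sharing 1 estimate of spread, Benjamini-Hochberg adjustment over all genes tested, threshold 0.05). Values are log2 differences ± SE, and levels are CPM, scaled to all UMIs of these cells. Shares were tested by exact permutation of bins, and cell numbers with edgeR over 17 classes. Negative bins held 0 to 7 of the cells, so the planned high minus negative gene contrasts were replaced by contrasts between positive bins after the cell numbers were seen.

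Genes named with a test were called, had at least 50 UMIs in the contrast, stood in these cells at or above all other barcodes and did not overlap between groups (up to 10 a direction), or were called members of a function list. Genes given beyond that were chosen after their values were seen. A few genes are not reported here. Scrublet (scanpy 1.11.5) marked doublets, which were kept and removed as an alternative. Its automatic limit was used or, in libraries where that marked almost none, a percentile of the scores. Other alternatives were DESeq2 1.42.0, RLE factors, filters on low counts, pool as a term and leaving out each replicate. Cells were also chosen by other limits in the rule, or by under 5 UMIs of each other-cell list. The microglia and the monocyte and dendritic cell lists were not used for the latter. On simulated data, changes of 4-fold were recovered in 75% of genes between ATV-TfR and control IgG (6460 genes) and in 64% between the high and low bins of control IgG (4209 genes), and of 2-fold in 28% and 20%.

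Bins of a pool share animals, so pools pair the bins. Deviations of libraries of the same pool correlated by 0.16 between low and medium, 0.13 between low and high and 0.08 between medium and high bins of control IgG (2149 genes), and by -0.19 between low and medium bins of ATV-CD98hc (2169 genes). Replicate numbers of different antibodies share only a number.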

Additional observations from a re-analysis of the deposited data

Results flagged for a closer look

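The rise of Lyve1/Cd163 macrophages from the negative to the high AF647 bin was larger with control IgG than with the ATVs. The difference between control IgG and the mean of both ATVs was 4.89 ± 1.23 on the log2 scale (edgeR's quasi-likelihood test of the interaction, adjusted p = 0.000607 over 17 classes). The rise itself was 6.79 with control IgG, 2.85 with ATV-CD98hc and 0.94 with ATV-TfR, the last of which did not pass. With endothelial barcodes left out of the offset, the difference was 0.74 (adjusted p = 0.678). The control IgG negative bin rests on 1 library with 7 of the cells.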

How the results depend on the processing

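Of the shares, the trend with ATV-TfR passed when counted against microglia and these cells (2.05) or without endothelial and astrocyte barcodes (1.21). The count against microglia also carries the fall of microglia numbers from the negative to the high bins. The trend with ATV-CD98hc no longer passed with at least 4 marker genes (0.62), with at most 2 MHC class II UMIs (0.63) or with bins permuted within pools, the replicate block (0.62). That with control IgG no longer passed under the same choices (1.13, 1.10 and 1.18), nor against microglia (0.73) or without endothelial and astrocyte barcodes (0.75). Leaving out a pool gave 0.56 to 0.68 with ATV-CD98hc and 0.41 to 1.32 with control IgG, designs too small to pass. The share of border macrophages with ATV-TfR had a slope of -0.12 to 0.51 without 1 pool, and that with control IgG passed after thinning (-1.01). With endothelial barcodes left out of the offset, the cell number rose with ATV-TfR (4.70), and control IgG no longer differed from the ATVs (0.74). With pool as a term within each antibody, the high bins of ATV-TfR and ATV-CD98hc differed by -1.27 (edgeR adjusted p = 0.0218).

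Numbers of genes called moved by more than 1.5 times under several choices, and the cause was not tested. Low bins had enough cells for ATV-CD98hc minus control IgG only, and gave 204 calls there, within that limit. For ATV-TfR minus control IgG (547) they were 933 without a filter on low counts, 255 with a stricter one, 267 without doublets, 45 without cells holding endothelial or astrocyte UMIs of the rule, 10 with little RNA of other cells, 210 in medium bins and 0 in high bins. Leaving out a replicate gave 331 to 623. For ATV-CD98hc minus control IgG (282) they were 466, 154, 123, 47, 7, 11 and 0 in the same order, with lower genes in the majority among the 47 (33) and the 11 (10), and 178 to 274 without a replicate. For ATV-TfR minus ATV-CD98hc (179) they were 339, 107, 43, 0, 0, 40 and 0, DESeq2 gave 62, and leaving out a replicate gave 0 to 215.

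For control IgG high minus low (38), DESeq2 called 78, no filter 125, a stricter filter 94, cells without doublets 94, without endothelial or astrocyte UMIs 79, with little RNA of other cells 182 and with at most 2 MHC class II UMIs 73. Without a replicate the range was 0 to 99. With pool as a replicate block 32 were called, 28 of them shared, and Rps4x, Wdr36 and Cx3cr1 were among those lost. Medium minus low in control IgG (0) had 9 without a filter and 0 to 2 without a replicate. In ATV-CD98hc (2) it had 0 with DESeq2, with a stricter filter and with the replicate block, 80 without a filter, 75 without doublets, 1 without shared barcodes and with little RNA of other cells, 87 with at most 2 MHC class II UMIs, and 1 to 114 without a replicate. With little RNA of other cells, high minus medium had 82 in control IgG (20), 6 in ATV-TfR (0) and 25 in ATV-CD98hc (3), and high minus low in ATV-CD98hc had 6 (19). There ATV-TfR high minus medium and ATV-CD98hc high minus low set 1 library against 1, so these counts have no replicate check. Female minus male (22) had 7 with DESeq2, 197 without a filter, 0 with no replicate block and 6 sums against 3 in place of 3 against 3, 1 without doublets, 0 with little RNA of other cells and 0 to 184 without a replicate.

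Igsf8, Fabp5, Ttyh3 and Cd9 were also called higher with ATV-TfR than with control IgG and are not described above. Of these, Igsf8 turned to -0.92 without cells holding endothelial or astrocyte UMIs of the rule. In high bins, with 1 library per ATV, Igsf8 turned to -4.63, Fabp5 to -0.44, Slc7a11 to -5.79, Ttyh3 to -0.0316 and Cd9 to -1.14 between ATV-TfR and control IgG, and Slc7a10 to -3.39 between ATV-CD98hc and control IgG. The planned negative-bin contrasts and a minimum of 50 cells per library could not be run. Contrasts between positive bins, the choices on RNA of other cells, shared barcodes and MHC class II in gene tests, and medium bins were chosen after seeing the data. Few cells per library limit the depth: 2-fold changes were mostly missed on simulated data.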
